A study of Homo sapiens with 10 samples.

Results

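The genes of mitochondrial protein import were followed in RNA-sequencing libraries of U2OS cells, a human osteosarcoma line. They were chosen by symbol, as the protein-coding genes whose name is TIMM or TOMM followed by a digit, together with PAM16, SAMM50, MTX1, MTX2, CHCHD4, GFER, PMPCA, PMPCB, GRPEL1, GRPEL2 and OXA1L. This gave 37 of the 63299 genes listed, and 32 of them passed an expression filter that left 16143 genes for testing. The cells had been grown in DMEM with serum and collected 48 h after transfection with control siRNA (control knockdown, 5 libraries) or siRNA against DDX41, a DEAD-box RNA helicase (DDX41 knockdown, 5 libraries). The siRNAs were pools, and effects of a pool other than the loss of its target cannot be told apart from that loss here. Polyadenylated RNA was sequenced as single reads, and the deposited values are read counts per gene, with totals of 23393764 to 24598860 per control library and 21807041 to 24896398 per DDX41 knockdown library. Levels are given as CPM, counts scaled to a common library size. The labels number the replicates 1 to 5 in each group but do not say that they are separate cultures, so p-values measure only the spread between these samples, which may be technical.

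Most mitochondrial proteins are made in the cytosol and threaded through the outer membrane by the TOM complex, which has receptors, a channel and small stabilising subunits. From there, proteins with a cleavable presequence pass through the TIM23 translocase and its motor, carrier proteins are handed by small TIM chaperones to the TIM22 translocase, barrel proteins go to the SAM complex, and small cysteine-rich proteins are trapped by a disulfide relay. Osteosarcoma cells, like other dividing cells, depend on this machinery for their respiratory chain and for the enzymes of the mitochondrial matrix.

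DDX41 (ENSG00000183258.11; chr5:177511577-177516961, minus strand, GRCh38) was measured first, as the targeted gene. Its level was 49.1, 49.4, 47.3, 47.2 and 50.5 CPM in control libraries 1 to 5 and 11.5, 13.7, 12.4, 11.2 and 12.3 CPM in DDX41 knockdown libraries 1 to 5. Every DDX41 knockdown library lay far below every control library, at 0.251 times the control level (log2 fold change -1.99 ± 0.05 SE, adjusted p = 4.47e-24, edgeR quasi-likelihood test). The cell line carried the transcripts of its type: mean control levels were 2465 CPM for VIM, 1875 CPM for COL1A1, 1672 CPM for FN1, 2807 CPM for SPARC and 32.4 CPM for RUNX2. After DDX41 knockdown RUNX2 fell by 0.40 on the log2 scale and SPARC rose by 0.18 ± 0.02, without overlap. VIM was called lower without overlap (-0.09 ± 0.02), and this call was lost with GC correction. FN1 (-0.21 ± 0.07) and COL1A1 (-0.09 ± 0.04) were not called, although each passed in 3 of the 17 alternative fits, among them those without control replicate 2 or 3 for FN1 and without control replicate 4 for COL1A1. CDKN2A and TERT, which are silent in this line, had 0.0257 and 0.0166 CPM. Of 7 markers of other cell types, CD3E was at 0, EPCAM was the most abundant at 7.99 CPM, and KRT5 fell from 5.24 to 0.488 CPM. EPCAM went from 7.99 to 8.31 CPM, CDH1 from 0.874 to 0.928 CPM and PTPRC from 0.333 to 0.539 CPM, none of them called. The summed level of these 7 markers was 13.8 to 15.6 CPM in control libraries and 9.54 to 11.3 CPM in DDX41 knockdown libraries. Of the 4 markers tested, only KRT5 was called lower and none was called higher, so the sum does not describe a common fall. The part of these markers in the results was not tested.

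After DDX41 knockdown, 19 of the 32 tested import genes were upregulated and 2 were downregulated at an adjusted p-value under 0.01. Over all genes tested, 30.3% were upregulated and 32.1% were downregulated at the same threshold, so the import genes were more often higher (59.4%) and less often lower (6.25%) than the background, a difference that is given as a description and was not tested. The median log2 fold change was 0.17 over the import genes and -0.0014 over all genes tested. The upregulated genes moved little, by 0.11 to 0.69 on the log2 scale with a median of 0.26. The downregulated genes, TOMM34 and TIMM8B, moved much further, by -1.31 and -1.22. Groups did not overlap for 13 import genes that were higher and 2 that were lower, against 26.7% and 29.3% of all genes tested. Summed over the 37 genes, the level was 2008 ± 33.2 CPM (SD, n = 5) in control libraries and 2113 ± 44.7 CPM (SD, n = 5) in DDX41 knockdown libraries. Without TOMM34 and TIMM8B, the 2 downregulated genes, the sums were 1863 ± 30.2 CPM and 2054 ± 45.1 CPM. These genes were left out because they fell, so the larger rise is by construction. In bulk RNA, a change in all cells and a larger change in some of them cannot be told apart.

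**Figure D1:**
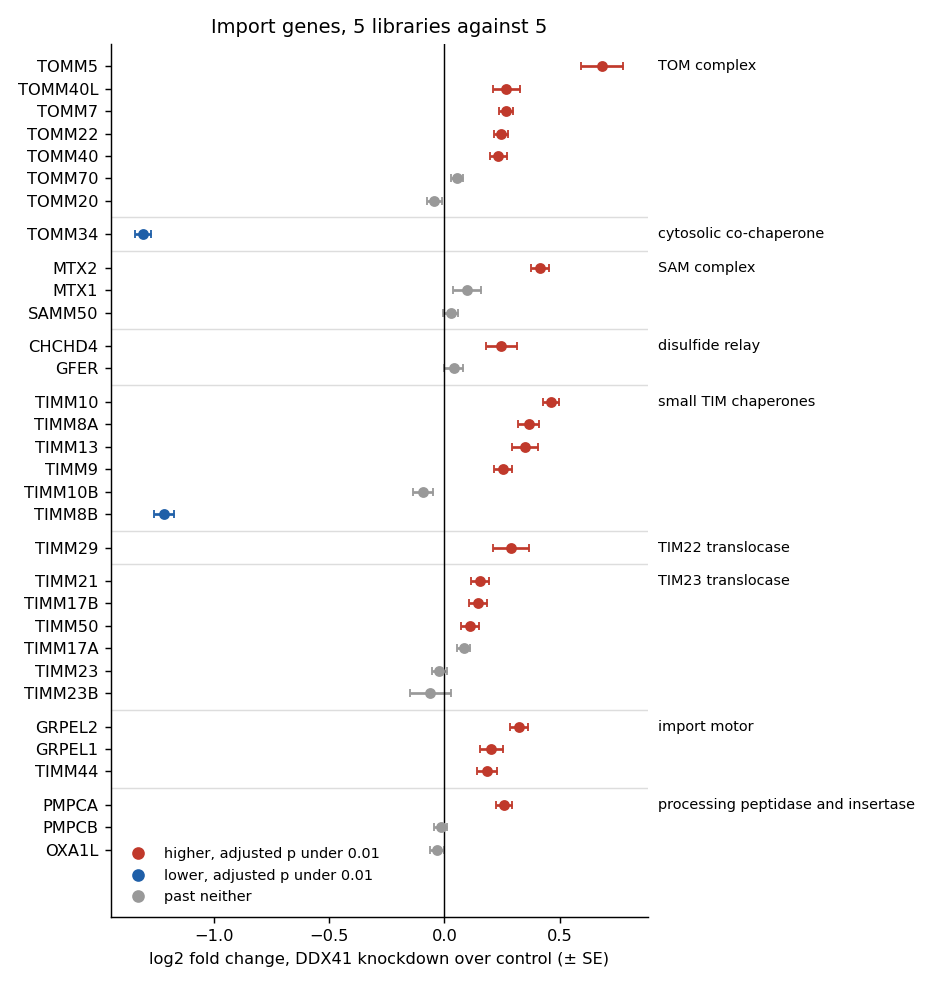
Log2 fold change (DDX41 knockdown over control knockdown, horizontal axis, bars ± SE) of the 32 tested import genes, grouped by role, with 5 libraries per group. Most points lie between 0 and 0.5, TOMM5 lies at 0.69, and TOMM34 and TIMM8B stand alone at -1.31 and -1.22.

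The other 5 genes did not pass the filter. TOMM6, PAM16 and TIMM22 were listed at 0 in all 10 libraries, which says only how the reads were assigned. TOMM6 encodes a small TOM subunit, PAM16 (also known as MAGMAS) a regulator of the import motor, and TIMM22 the channel that inserts carrier proteins. All exon bases of TOMM6 lie inside a longer read-through gene (ENSG00000124593), which had 1238 counts over the 10 libraries. That read-through gene was called lower after DDX41 knockdown (log2 fold change -0.28). PAM16 shares exon bases with a read-through gene that was itself at 0. Whether these overlaps gave the zeros was not tested. TOMM20L, a TOMM20 relative, had 27 counts in total, and the read-through gene TIMM23B-AGAP6 had 67, in both groups alike near the floor of detection. None of these 5 genes entered the tests. Among the tested genes, MTX1, PMPCB, SAMM50, TIMM17B, TIMM23B, TIMM8B and TIMM9 share exon bases with a gene that had at least 10% of their counts, so another way of counting could split their reads differently.

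In the TOM complex, 5 of 7 tested genes were upregulated and none was downregulated, beside 30.3% and 32.1% of all genes tested, and the median log2 fold change was 0.25. TOMM40 forms the channel, and its level rose from 103.7 ± 5.90 to 121.9 ± 5.49 CPM (SD, n = 5), with groups that just overlapped, at 113.1 CPM in the highest control library and 112.8 CPM in the lowest DDX41 knockdown library. TOMM40L, a second and scarcer channel isoform, rose from 16.4 ± 1.73 to 19.8 ± 0.96 CPM, with groups that overlapped. TOMM22, the central receptor that organises the complex, rose by 0.25 ± 0.03 on the log2 scale. The primary receptors behaved otherwise, with log2 fold changes of -0.04 ± 0.03 for TOMM20, which reads presequences, and 0.05 ± 0.03 for TOMM70, which takes carrier proteins from cytosolic chaperones. Neither passed the threshold, although TOMM20 was called lower once a trend with GC content was removed from each library, at -0.10. TOMM7, a small subunit that modulates complex assembly, rose by 0.27 ± 0.03.

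TOMM5, a small subunit next to the channel, showed the largest increase of all import genes. Its level was 3.47, 3.88, 3.91, 3.21 and 3.79 CPM in control libraries 1 to 5 and 6.30, 5.65, 6.41, 5.49 and 5.53 CPM in DDX41 knockdown libraries 1 to 5. The lowest DDX41 knockdown library lay well above the highest control library (log2 fold change 0.69 ± 0.09, adjusted p = 9.85e-08). TOMM5 shares 14.4% of its exon bases with ENSG00000255872 and 9.43% with ENSG00000256966, both on the same strand. Over the 10 libraries these genes had 8 and 0 counts. Whether this overlap kept reads from being assigned to TOMM5 was not tested. Summed over the 9 TOM genes, the level was 704.6 ± 14.2 CPM in control libraries and 782.7 ± 18.8 CPM in DDX41 knockdown libraries.

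TOMM34 (ENSG00000025772.7; chr20:44942130-44960397, minus strand) encodes a cytosolic co-chaperone that binds Hsp70 and Hsp90 and precursor proteins on their way to the outer membrane. Its level was 101, 98.3, 92.9, 96.1 and 95.4 CPM in control libraries 1 to 5 and 37.6, 39.6, 37.9, 39.6 and 40.8 CPM in DDX41 knockdown libraries 1 to 5. All 5 DDX41 knockdown libraries sat close together, at 0.404 times the control level, and no library of either group came near the other group (log2 fold change -1.31 ± 0.03, adjusted p = 2.20e-23). Its exons share no base with another annotated gene, and its log2 fold change lay between -1.32 and -1.24 in the 17 alternative fits.

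**Figure D2:**
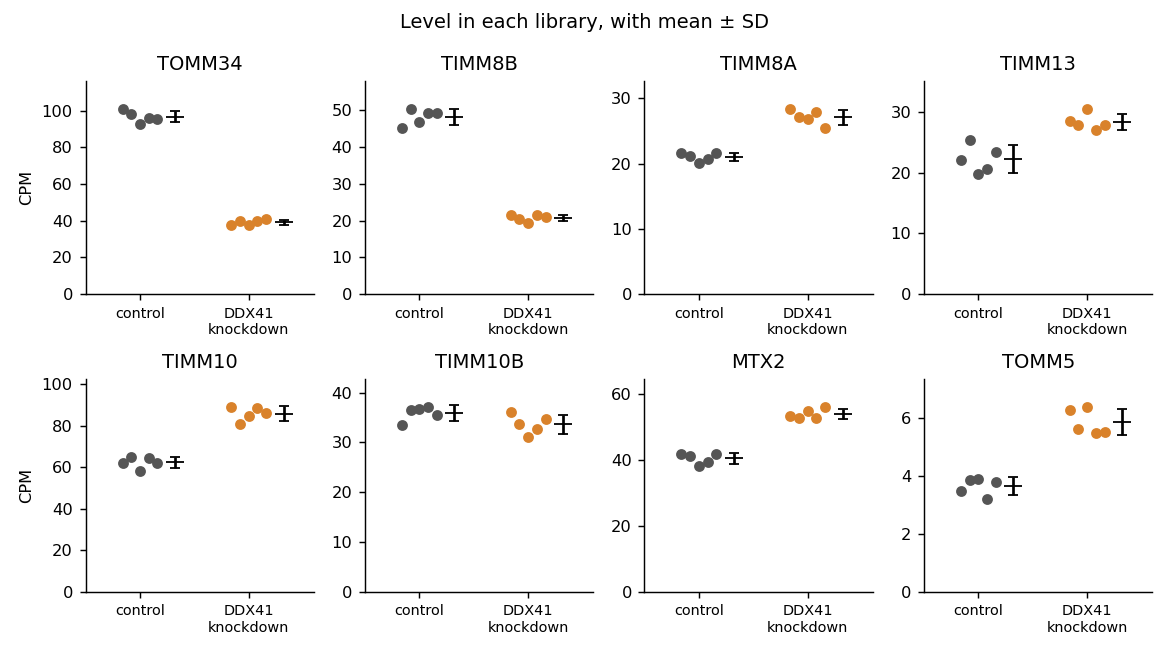
Level in CPM (vertical axis, from 0) of 8 import genes in each of the 5 control knockdown and 5 DDX41 knockdown libraries, with mean ± SD beside the points. TOMM34 and TIMM8B drop in all 5 DDX41 knockdown libraries, TIMM8A, TIMM13, TIMM10, MTX2 and TOMM5 are higher without overlap, and TIMM10B overlaps between groups.

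The small TIM chaperones escort hydrophobic precursors across the intermembrane space, and 4 of these 6 genes were upregulated and TIMM8B was downregulated, beside 30.3% and 32.1% of all genes tested. TIMM10 is a subunit of the ring that TIMM9 and TIMM10 build. Its level was 62.0, 65.1, 58.3, 64.3 and 61.9 CPM in control libraries 1 to 5 and 89.2, 80.7, 84.4, 88.5 and 86.3 CPM in DDX41 knockdown libraries 1 to 5. The groups were separated by a wide gap (log2 fold change 0.46 ± 0.04, adjusted p = 1.49e-12). TIMM9, its partner in the ring, also rose without overlap, from 37.5 ± 1.79 to 44.7 ± 1.38 CPM (log2 fold change 0.25 ± 0.04). TIMM10B, a relative that links the ring to the TIM22 translocase, stood at 33.4, 36.6, 36.8, 37.2 and 35.6 CPM in control libraries and at 36.1, 33.7, 31.2, 32.6 and 34.7 CPM in DDX41 knockdown libraries. Its groups overlapped and it did not pass the threshold (log2 fold change -0.09 ± 0.04, adjusted p = 0.0560).

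TIMM8A, the gene mutated in deafness-dystonia syndrome, works in a ring with TIMM13, and TIMM8B is its close relative. TIMM8A stood at 21.6, 21.1, 20.1, 20.7 and 21.5 CPM in control libraries 1 to 5 and at 28.4, 27.1, 26.8, 27.9 and 25.4 CPM in DDX41 knockdown libraries 1 to 5. TIMM13 stood at 22.1, 25.4, 19.8, 20.6 and 23.4 CPM in control libraries and at 28.5, 27.8, 30.5, 27.1 and 27.8 CPM in DDX41 knockdown libraries. Both ring partners were thus higher in every DDX41 knockdown library than in any control library (log2 fold changes 0.37 ± 0.05 and 0.35 ± 0.06). TIMM8B (ENSG00000150779.11; chr11:112084800-112086798, minus strand) stood at 45.1, 50.4, 46.9, 49.2 and 49.3 CPM in control libraries and at 21.4, 20.4, 19.3, 21.5 and 21.0 CPM in DDX41 knockdown libraries. It moved the opposite way, to less than every control value, without overlap (log2 fold change -1.22 ± 0.04, adjusted p = 2.94e-20).

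The ratio of TIMM8A to TIMM8B within each library, which does not depend on library scaling, rose in every DDX41 knockdown library above every control library. Its log2 value on counts ran from -1.26 to -1.06 in control libraries and from 0.28 to 0.47 in DDX41 knockdown libraries, a difference of 1.58 ± 0.05 (SE, n = 5 per group; two-sided exact permutation test, p = 0.00794, adjusted p = 0.0212 over 8 pairs of related genes). Per kb of canonical transcript, TIMM8A was at 0.281 times TIMM8B in control libraries and at 0.843 times in DDX41 knockdown libraries, so it stayed below TIMM8B on that scale. For TIMM8B, 30.1% of exon bases lie opposite NKAPD1, which had 196% of the counts of TIMM8B and a log2 fold change of -0.17, and the strand setting of the counting is not given in the sources used here. The log2 ratio of TIMM10 to TIMM10B also differed, rising by 0.56 ± 0.05 from a control mean of 0.79 (exact permutation test, n = 5 per group, p = 0.00794, adjusted p = 0.0212), again with no overlap. The smallest p-value that 5 against 5 libraries can give is 0.00794.

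**Figure D3:**
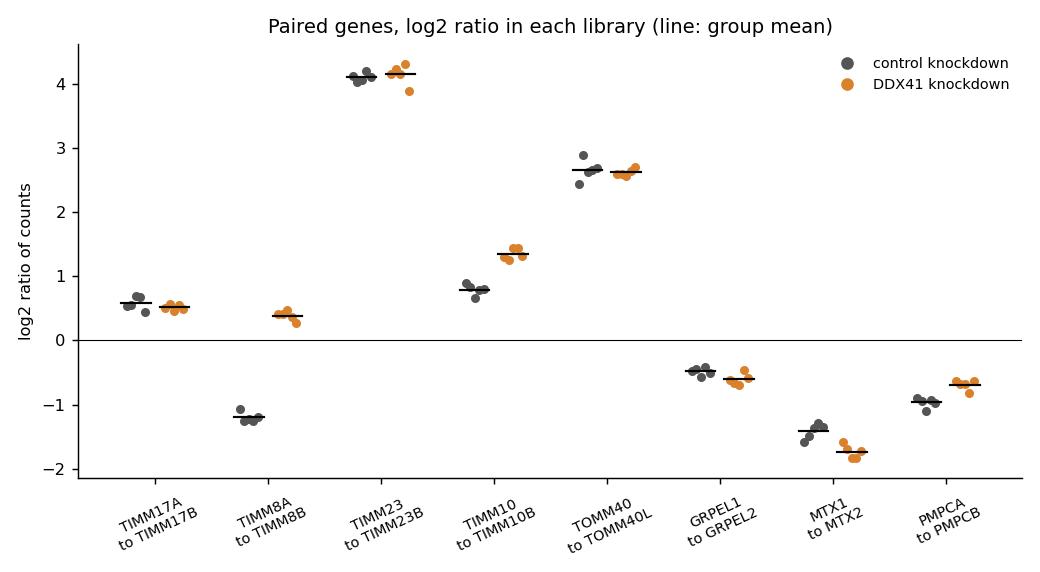
Log2 ratio of counts of paired genes (vertical axis) in each control knockdown and DDX41 knockdown library, with a line at each group mean. The groups are apart for TIMM8A to TIMM8B, TIMM10 to TIMM10B and PMPCA to PMPCB, and overlap for the other 5 pairs.

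The promoter windows of TOMM34, which fell, and of TIMM10, MTX2 and CHCHD4, which rose, are shown as examples that hold a motif, chosen after the motifs were seen. The windows come from RefSeq (GRCh38.p14) and run from 250 bases before to 50 bases after the start site, 5′ to 3′ on the gene's strand; 34 of the 37 genes had a window, and GRPEL1, TIMM8B and TOMM5 had none. Capitals mark exact matches, on either strand, to 5 short motifs: NRF1 (GCGCATGCG), GABPA or another ETS factor (CCGGAAGT), YY1 (AAGATGGCG), SP1 (GGGGCGGGG) and ATF4 (TGATGCAA). No other letters were marked, and a match describes letters and is not a bound site.
TOMM34, chr20:44960348-44960647, minus strand: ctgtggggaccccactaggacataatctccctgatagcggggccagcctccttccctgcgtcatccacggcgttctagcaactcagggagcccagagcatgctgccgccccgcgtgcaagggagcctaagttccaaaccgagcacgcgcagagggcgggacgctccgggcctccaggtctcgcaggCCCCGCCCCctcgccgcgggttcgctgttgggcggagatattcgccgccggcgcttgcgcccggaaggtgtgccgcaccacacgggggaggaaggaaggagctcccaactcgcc
TIMM10, chr11:57530705-57531004, minus strand: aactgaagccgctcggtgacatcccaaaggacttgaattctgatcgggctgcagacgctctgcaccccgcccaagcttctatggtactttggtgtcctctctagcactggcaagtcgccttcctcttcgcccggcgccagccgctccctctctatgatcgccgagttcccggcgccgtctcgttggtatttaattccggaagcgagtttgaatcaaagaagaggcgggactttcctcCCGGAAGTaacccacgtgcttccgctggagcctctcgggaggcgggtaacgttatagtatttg
MTX2, chr2:176269192-176269491, plus strand: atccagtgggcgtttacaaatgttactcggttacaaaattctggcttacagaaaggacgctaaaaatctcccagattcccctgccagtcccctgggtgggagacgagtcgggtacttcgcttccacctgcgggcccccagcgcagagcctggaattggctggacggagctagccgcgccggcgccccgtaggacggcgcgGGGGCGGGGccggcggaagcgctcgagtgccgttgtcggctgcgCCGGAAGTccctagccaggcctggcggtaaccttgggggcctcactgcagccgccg
CHCHD4, chr3:14124821-14125120, minus strand: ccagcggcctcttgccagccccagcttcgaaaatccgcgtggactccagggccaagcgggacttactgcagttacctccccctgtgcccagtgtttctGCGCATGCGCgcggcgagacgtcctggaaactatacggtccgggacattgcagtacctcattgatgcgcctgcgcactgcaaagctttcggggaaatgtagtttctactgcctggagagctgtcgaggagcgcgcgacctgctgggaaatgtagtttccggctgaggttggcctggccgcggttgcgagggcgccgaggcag
The TOMM34 window held the SP1 letters, first base 64 bases before the start site. TIMM10 held the ETS letters 13 bases before its start site, and MTX2 held them 6 bases before its start site, with the SP1 letters 50 bases before it. GENCODE places the start of TIMM10 49 bases and that of MTX2 47 bases further upstream, so by that annotation both ETS matches lie after the start of the gene. CHCHD4 held a palindrome in which the NRF1 letters match on both strands, in overlapping positions 152 and 151 bases before the start site. The windows of TIMM8A and TIMM13, which rose more than CHCHD4 did, held none of the 5 motifs.

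Over the 34 windows, the ETS letters were in 8 (23.5%), against 4.14% of 35116 windows of all genes, which include noncoding ones. Of these 8 genes, GRPEL2, MTX2, TIMM10 and TIMM29 were upregulated, TIMM10B, TOMM20 and TOMM70 passed neither threshold, and TOMM6 was listed at 0. The NRF1 letters were in 3 windows (CHCHD4, TIMM9 and TOMM7; 8.82% against 1.92% of all windows) and the YY1 letters in 3 others (PMPCA, TIMM50 and TOMM40L; 8.82% against 1.75%), and these 6 genes were called upregulated, beside 59.4% of the tested import genes and 30.3% of all genes tested; the TIMM50 call was lost in 11 of the 17 alternative fits. The YY1 letters began 8 bases after the start site in PMPCA, 13 bases after it in TIMM50 and 53 bases before it in TOMM40L. GENCODE places the start of TOMM40L 121 bases further upstream, so by that annotation its match also lies after the start of the gene. The SP1 letters were in 5 windows (14.7% against 15.7%), of which TOMM34 fell, MTX2 and TOMM40 rose, GFER passed neither threshold and PAM16 was at 0. The ATF4 letters were in the windows of PMPCB and TIMM22 (5.88% against 0.866%).

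The SAM complex inserts barrel proteins into the outer membrane, with SAMM50 as its channel and the metaxins as its cytosolic caps. MTX2 stood at 41.9, 41.3, 38.1, 39.4 and 41.9 CPM in control libraries 1 to 5 and at 53.4, 52.8, 55.0, 52.7 and 56.3 CPM in DDX41 knockdown libraries 1 to 5. MTX1 stood at 14.0, 14.7, 14.8, 16.2 and 16.4 CPM in control libraries and at 17.8, 16.4, 15.4, 14.9 and 17.03 CPM in DDX41 knockdown libraries. MTX2 was thus higher in every DDX41 knockdown library, by 0.42 ± 0.04 on the log2 scale (adjusted p = 4.94e-11), whereas the MTX1 groups overlapped and MTX1 did not pass the threshold (0.10 ± 0.06, adjusted p = 0.149). The log2 ratio of MTX1 to MTX2 changed by -0.32 ± 0.07 (exact permutation test, n = 5 per group, p = 0.0159, adjusted p = 0.0317), although control replicate 1, at -1.58, reached into the range of the DDX41 knockdown libraries. SAMM50 was at 81.9 ± 2.58 CPM in control libraries and 83.5 ± 2.81 CPM in DDX41 knockdown libraries (SD, n = 5) and did not pass the threshold.

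In the disulfide relay, CHCHD4 is the oxidoreductase that traps incoming cysteine-rich proteins, and GFER is the oxidase that recharges it. CHCHD4 was upregulated, from 13.04 ± 1.05 to 15.5 ± 1.51 CPM, with overlapping groups (log2 fold change 0.25 ± 0.07, adjusted p = 0.00201). GFER did not pass the threshold (0.04 ± 0.04). In the TIM22 translocase, TIMM29, a metazoan subunit that helps to assemble the complex, was the member that could be tested, and it was upregulated from 7.44 ± 0.60 to 9.08 ± 0.89 CPM.

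In the TIM23 translocase, which crosses the inner membrane, 3 of 6 genes were upregulated, beside 30.3% of all genes tested, with a median log2 fold change of 0.10; of these 3 calls, that of TIMM50 was lost in 11 of the 17 alternative fits. The channel gene TIMM23 had a log2 fold change of -0.02 ± 0.03 and its copy TIMM23B one of -0.06 ± 0.09, and neither passed the threshold; these genes are near-identical, so the split of reads between them is uncertain. The TIMM17 subunits line the path of the translocating protein. TIMM17B was upregulated by 0.14 ± 0.04 (0.22 with GC correction), with groups that overlapped, and 15.5% of its exon bases lie opposite PQBP1, which had 103% of its counts. TIMM17A was higher in every DDX41 knockdown library than in any control library but missed the threshold (0.08 ± 0.03, adjusted p = 0.0131), and it passed in 3 of the 17 alternative fits. With GC correction TIMM17A stood at 0.03 and did not pass. The log2 ratio of TIMM17A to TIMM17B overlapped between groups (difference -0.06 ± 0.05; exact permutation test, n = 5 per group, p = 0.278, adjusted p = 0.370). TIMM21, which links the TIM23 and TOM complexes and the respiratory chain, was upregulated without overlap by 0.15 ± 0.04. TIMM50, the receptor for presequences on the inner membrane, was called at 0.11 ± 0.04 (adjusted p = 0.00935), and stood at 0.17 with GC correction.

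The import motor pulls precursors into the matrix, and all 3 of its tested genes chosen by the rule were upregulated, beside 30.3% of all genes tested. The motor's J-protein genes, which the rule does not take, were not uniform, with DNAJC15 lower (-0.17 ± 0.04, adjusted p = 0.00131) and DNAJC19 not called (0.11 ± 0.05); they were added after their values were seen. TIMM44, the scaffold that ties the motor to the channel, rose by 0.18 ± 0.04 on the log2 scale (0.28 with GC correction), and the nucleotide exchange factors GRPEL1 and GRPEL2 rose by 0.20 ± 0.05 and 0.32 ± 0.04. GRPEL2, the redox-sensitive form, was higher in every DDX41 knockdown library than in any control library, and the GRPEL1 groups overlapped. Their log2 ratio did not differ past the threshold (-0.12 ± 0.05; exact permutation test, n = 5 per group, p = 0.0476, adjusted p = 0.0762), except without DDX41 knockdown replicate 4, where the difference was -0.15 and passed. Summed over the motor genes, the level was 103.9 ± 3.24 CPM in control libraries and 123.1 ± 5.79 CPM in DDX41 knockdown libraries.

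The matrix processing peptidase cuts presequences off and needs an alpha subunit, PMPCA, and a catalytic beta subunit, PMPCB. PMPCA stood at 74.5, 75.8, 67.7, 74.1 and 73.7 CPM in control libraries 1 to 5 and at 92.5, 87.2, 87.1, 82.9 and 88.1 CPM in DDX41 knockdown libraries 1 to 5. PMPCB stood at 138.2, 145.1, 144.6, 140.6 and 144.6 CPM in control libraries and at 143.3, 139.9, 139.1, 146.4 and 136.2 CPM in DDX41 knockdown libraries. PMPCA was higher in every DDX41 knockdown library (0.26 ± 0.03, adjusted p = 1.41e-07), whereas PMPCB groups overlapped throughout (-0.02 ± 0.03, adjusted p = 0.616). PMPCB was called lower once the GC trend was removed, at -0.08. The log2 ratio of the subunits rose by 0.28 ± 0.05 with no overlap (exact permutation test, n = 5 per group, p = 0.00794, adjusted p = 0.0212). Per kb of canonical transcript, PMPCA went from 0.961 to 1.16 times PMPCB. OXA1L, which inserts proteins made in the matrix into the inner membrane, did not pass the threshold (-0.03 ± 0.03). The other paired genes, TIMM23 to TIMM23B (difference 0.05 ± 0.08, p = 0.579 by the exact permutation test) and TOMM40 to TOMM40L (-0.04 ± 0.07, p = 0.619 by the exact permutation test), overlapped between groups.

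Levels were compared between genes per kb of canonical transcript. In control libraries TOMM7 was the highest at 272 ± 5.45 CPM per kb (SD, n = 5), followed by TIMM10 at 93.3 ± 3.98, TIMM23 at 84.3 ± 2.40, TIMM17B at 71.4 ± 3.92, TOMM22 at 69.7 ± 2.93 and TIMM8B at 61.8 ± 2.75 CPM per kb. TIMM17B and TOMM22 did not differ beyond their spread. TIMM23B at 2.33 ± 0.06, TOMM5 at 5.17 ± 0.43, TIMM29 at 5.52 ± 0.45 and TOMM40L at 5.89 ± 0.62 CPM per kb were the lowest of the tested genes, and neither TOMM5 and TIMM29 nor TIMM29 and TOMM40L differed beyond their spread. TIMM23B and TOMM5 share exon bases with other genes on the same strand, and whether reads were lost to this overlap was not tested. TIMM8B was therefore the more abundant of the TIMM8 genes in control libraries, at 61.8 against 17.4 CPM per kb for TIMM8A, and came down to 26.6 against 22.4 CPM per kb after DDX41 knockdown. TOMM34 went from 49.0 to 19.8 CPM per kb. Across the 32 tested import genes, the log2 fold change had a Spearman correlation of -0.37 with transcript length, -0.36 with the mean control level, -0.29 with the number of exons and 0.09 with GC content. These genes share the same libraries, and over all genes tested the correlations were -0.05 (15936 genes), -0.0068 (16143 genes), -0.0045 and -0.13 (15936 genes each).

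**Figure D4:**
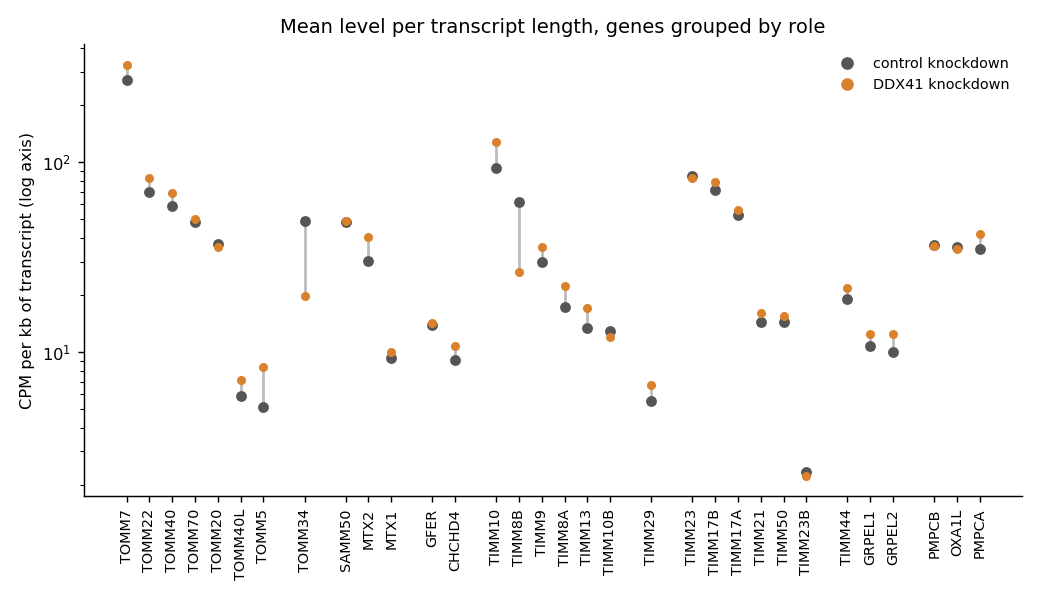
Mean level in CPM per kb of canonical transcript (vertical log axis) of the 32 tested import genes in control knockdown and DDX41 knockdown libraries, n = 5 each, grouped by role. TOMM7 is the highest at 272 CPM per kb in control libraries, and TOMM34 and TIMM8B show the long drops.

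Of the import genes, 15 have a gene on the opposite strand whose start site lies within 1000 bases, and 9 of these neighbours are coding genes that were tested together with a tested import gene. Of the 9 neighbours 4 were called, beside 62.4% of all genes tested that were called in either direction, so pairs in which both genes were called are given as a description. In 3 of the 9 pairs both genes were called, and PMPCA and ENTR1, a gene of endosomal trafficking, moved the same way. TIMM8B starts 26 bases from SDHD, which encodes a membrane anchor of respiratory complex II. SDHD stood at 85.4, 90.2, 84.9, 89.0 and 84.4 CPM in control libraries 1 to 5 and at 106.6, 93.2, 97.7, 104.8 and 98.3 CPM in DDX41 knockdown libraries 1 to 5. SDHD was thus higher in every DDX41 knockdown library (0.21 ± 0.04, adjusted p = 6.53e-06) while TIMM8B, on the other strand of the same stretch, was lower in each of them. CHCHD4 and TMEM43, an inner nuclear membrane protein gene, also went apart, with TMEM43 falling from 125.5 ± 3.09 to 100.1 ± 4.50 CPM. LNP1, next to TOMM70, fell from 30.9 ± 0.73 to 17.7 ± 0.92 CPM (-0.81 ± 0.05), and TOMM70 itself did not pass the threshold. THBS3 (with MTX1), ARFIP2 (TIMM10B), FBXO15 (TIMM21), YIPF2 (TIMM29) and KIAA0586 (TIMM9) passed neither threshold, although ARFIP2 was called higher after GC correction, at 0.14. The remaining neighbours were noncoding or pseudogenes (of OXA1L, TIMM23, TOMM20L, TOMM22 and TOMM40) or were too low to test (NOXO1 with GFER, and ENSG00000255292 with TIMM8B), and none was called.

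**Figure D5:**
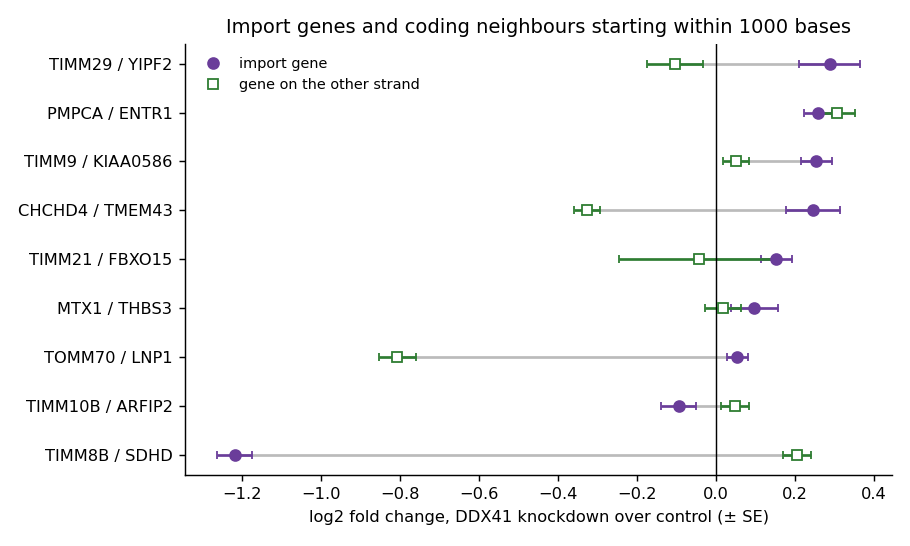
Log2 fold change (DDX41 knockdown over control knockdown, horizontal axis, bars ± SE) of 9 import genes and of the coding gene that starts within 1000 bases on the other strand, 5 libraries per group. PMPCA and ENTR1 lie together at 0.26 and 0.31, whereas TIMM8B at -1.22 and SDHD at 0.21 lie on opposite sides of 0.

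Outside the gene names used to choose the import genes, 6 lists of the same pathway held 86 tested genes, of which 38 (44.2%) were upregulated and 19 (22.1%) were downregulated, with a median log2 fold change of 0.08. Among 11 other import factors, 4 were upregulated and 4 downregulated (36.4% each), near the 30.3% and 32.1% of all genes tested. HSPA9, the matrix Hsp70 on which the import motor runs, rose from 342.7 ± 6.04 to 476.1 ± 16.2 CPM (0.47 ± 0.03, adjusted p = 1.40e-15), in the same direction as TIMM44, GRPEL1 and GRPEL2 and opposite to DNAJC15. AGK, a lipid kinase that is also a subunit of the TIM22 translocase, fell from 8.44 ± 0.40 to 5.40 ± 0.90 CPM, opposite to TIMM29, and the outer membrane protein gene MTCH1 fell by 0.23 on the log2 scale, or by 0.14 with GC correction. Of 18 matrix chaperones and mitochondrial proteases, 9 were upregulated and 3 downregulated (50% and 16.7%). MIPEP, which trims octapeptides after the processing peptidase has cut, rose by 0.77 ± 0.05, the protease LONP1 rose by 0.37 ± 0.04, and the disaggregase CLPB fell by 0.65 on the log2 scale.

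Of 16 substrates of the disulfide relay, 7 were upregulated and 1 downregulated (43.8% and 6.25%, beside 30.3% and 32.1% of all genes tested), with COA6, CMC1 and NDUFA8, all assembly factors or subunits of respiratory complexes, at 0.48 ± 0.05, 0.45 ± 0.06 and 0.25 ± 0.04. Of 8 genes of the MICOS complex, which shapes the cristae and touches the SAM complex, 3 were upregulated (MICOS13 at 0.57 ± 0.06, APOO at 0.59 ± 0.07 and APOOL at 0.31 ± 0.04) and 2 downregulated. These shares, 37.5% and 25%, lie near those of all genes tested, and the median log2 fold change was 0.0053. The downregulated MICOS genes, named after their values were seen, were CHCHD3 (-0.33 ± 0.04) and DNAJC11 (-0.12 ± 0.04), whose call was lost in 8 of the 17 alternative fits, among them those without control replicate 1, 3 or 5 or without DDX41 knockdown replicate 3 or 4, and which stood at -0.03 with GC correction. Of 17 cytosolic chaperones and surveillance factors, 8 were upregulated and 3 downregulated (47.1% and 17.6%). The Hsp90 gene HSP90AA1, whose product TOMM34 and TOMM70 bind, rose from 1623 ± 33.2 to 2194 ± 85.6 CPM, and DNAJB6 and HSPA4 rose by 0.44 ± 0.03 and 0.30 ± 0.03. Added after their values were seen, the other Hsp90 gene HSP90AB1 did not pass the threshold (-0.03 ± 0.02), and the co-chaperone gene STIP1 fell by 0.29 on the log2 scale. Of 16 regulators of mitochondrial biogenesis, 7 were upregulated and 6 downregulated (43.8% and 37.5%, beside 30.3% and 32.1% of all genes tested). ATF5, a transcription factor of the mitochondrial stress response, fell from 29.9 ± 2.51 to 12.5 ± 0.90 CPM, and the coactivator gene PPARGC1B rose from 5.91 ± 0.37 to 14.6 ± 1.03 CPM, whereas its relative PPARGC1A fell from 5.00 ± 0.73 to 2.35 ± 0.57 CPM. GABPB2, a partner of the ETS factor GABPA, rose by 0.90 ± 0.06. Like PPARGC1A, the following were added after their values were seen: the other GABPA partner GABPB1 fell by 0.20 on the log2 scale (adjusted p = 1.14e-05), NRF1 fell by 0.26 (adjusted p = 6.11e-06), and GABPA (-0.0014 ± 0.05) and YY1 (0.0059 ± 0.03) did not pass the threshold.

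Other nuclear genes for mitochondrial proteins were counted for comparison. Of 73 tested subunits of the respiratory chain and ATP synthase, 48 (65.8%) were upregulated and 5 (6.85%) downregulated, with a median log2 fold change of 0.18, beside 0.17 for the import genes; of all genes tested, 30.3% were upregulated and 32.1% downregulated. Of 75 mitochondrial ribosomal protein genes, 34 (45.3%) were upregulated and 15 (20%) downregulated, with a median of 0.11. The differences between these lists were not tested.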

How the data were processed

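Per the submitters' processing notes and the methods of the study, the authors made stranded libraries of polyadenylated RNA, ran bcl2fastq 2.19, aligned single reads by STAR 2.7 (hg38, Gencode 25) and deposited counts of reads per gene from featureCounts 1.6, without normalization. The strand setting is not given in the sources used here. Identifiers were joined without version to GENCODE release 44 on the same build (98.7% of tested genes).

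All genes were fitted together by edgeR 4.0.16 under R 4.3.3 (TMM scaling, its expression filter by group, robust quasi-likelihood test, Benjamini-Hochberg adjustment over 16143 genes, threshold 0.01); the fit was tested on simulated data. Some marker genes of cell types are not reported here. DESeq2 1.42.0 and limma 3.58.1 served as alternatives. Python 3.11.15 (scipy 1.17.1) gave the other values. Ratios of paired genes used a prior count of 0.5, a two-sided exact permutation test and a threshold of 0.05 over 8 pairs; TOMM20 to TOMM20L was not tested. Counts of 2 libraries of a group differed beyond sampling noise (chi-square 1.84 to 6.18 per degree of freedom, 20 pairs).

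Per-library values are given for DDX41, for the 5 upregulated and 5 downregulated genes of largest change without overlap (only 2 were downregulated) and for paired genes whose ratio differed; lists outside the rule are named by their 3 smallest adjusted p-values, and neighbours by start sites within 1000 bases. The SDHD values in every library were added after they were seen. The import genes, the lists and this rule were chosen with earlier results of these data known. Alternatives changed the scaling, filter, test, threshold, GC correction, replicate block, overlapping genes and libraries used.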

Additional observations from a re-analysis of the deposited data

Results flagged for a closer look

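Within groups of 5 libraries, the highest or lowest level was set against the gap to its nearest neighbour for the 32 tested import genes and DDX41, which gave 66 groups. In 3 of them a library stood apart, where chance alone marks about 1 in 20 groups. PMPCA was lowest in control replicate 3, at 67.7 CPM, with the next control library at 73.7 CPM. TIMM23 was lowest in DDX41 knockdown replicate 2, at 91.5 CPM, with the next at 99.5 CPM. TOMM40L was highest in control replicate 1, at 19.5 CPM, with the next at 16.1 CPM, and this library is the one that brings its groups into overlap. No library stood apart for more than 1 gene.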

How the results depend on the processing

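Of the 32 tested import genes, 28 kept the same call, or the lack of one, in 17 alternative fits, among them 20 of the 21 called genes, TOMM34 and TIMM8B included. TIMM50 lost its call in 11 fits (log2 fold change 0.08 to 0.12 in these), among them the fits without control replicate 3, 4 or 5 or without DDX41 knockdown replicate 1, 3, 4 or 5. TIMM17A passed in 3 fits, among them the one without DDX41 knockdown replicate 2, and PMPCB and TOMM20 passed with GC correction, which took the downregulated genes from 2 to 4; apart from the libraries left out, the cause was not tested. Requiring a log2 fold change of at least 0.25 left 11 upregulated genes, by construction. Keeping only the 25 tested genes that share no exon base with a gene of at least 10% of their counts left 17 upregulated and 1 downregulated (TOMM34) and a median of 0.23, since this leaves out MTX1, PMPCB, SAMM50, TIMM17B, TIMM23B, TIMM8B and TIMM9. Overlap with a gene of fewer counts was not screened, as for TOMM5, GFER, TOMM40L and TIMM13, so the 25 genes are not all free of overlap. Leaving out each library gave 18 to 20 upregulated and 2 downregulated genes, a median of 0.15 to 0.18, 35 to 41 upregulated and 15 to 20 downregulated genes of the outside lists, and a DDX41 log2 fold change of -2.04 to -1.96. The log2 ratio differences then ran from 1.56 to 1.62 for TIMM8A to TIMM8B, 0.52 to 0.58 for TIMM10 to TIMM10B, 0.24 to 0.31 for PMPCA to PMPCB, -0.36 to -0.28 for MTX1 to MTX2, and -0.15 to -0.10 for GRPEL1 to GRPEL2.

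Same-numbered libraries did not deviate together (correlations -0.052 to 0.045), and 1 of 10 libraries correlated best with its own number. With the replicate number as a block, 18 import genes were upregulated and 2 downregulated. A sign-flip test of the 5 numbered pairs as a block cannot go below an exact p of 0.0625, so the differences of 1.58, 0.56, -0.32 and 0.28 could not pass there. Depth limits TOMM5, TIMM23B and TIMM29 most, and genes at 0 were not detectable as assigned.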

Other observations

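Genes encoded by the mitochondrial genome took 1.13% to 1.69% of the counts in control libraries and 2.00% to 2.29% in DDX41 knockdown libraries, without overlap. The libraries were made from polyadenylated RNA, and these shares were not tested.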
